A study of Mus musculus with 9 samples.

Results

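The Egr and Nr4a genes encode transcription factors of the immediate early response, and 8 genes were examined here in mouse embryonic fibroblasts (MEFs) under hyperosmotic stress: Egr1, Egr2 and Egr3, their corepressors Nab1 and Nab2, and Nr4a1, Nr4a2 and Nr4a3. They were chosen by gene symbol, as 8 of the 35275 genes in the deposited table, with earlier results of these data known. All 8 passed the filter on low counts and were tested among 13082 genes. Wild type MEFs of strain C57Bl/6, with no genetic change in any group, were kept in culture medium without added sucrose (iso-osmolar), or for 3 hr in medium with 200 mM added sucrose (500 mOsm, low-intensity stress) or 300 mM added sucrose (600 mOsm, high-intensity stress). Poly-T selected mRNA was sequenced as 3 libraries per treatment. The sources used here do not state that libraries of one treatment came from separate cultures, so the p-values measure the spread between these libraries only.

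Immediate early genes are transcribed within minutes of a stimulus from factors already present in the cell, such as serum response factor and CREB acting downstream of the MAP kinases, and their mRNAs are short-lived. Egr proteins are zinc finger factors that bind GC-rich sites. Nab1 and Nab2 bind Egr proteins and repress their activity, and Egr proteins in turn can raise Nab transcription. The Nr4a proteins are orphan nuclear receptors that act without a known natural ligand in most settings and bind DNA as monomers, as dimers or with retinoid X receptors. In fibroblasts both families are best known for their response to serum and growth factors.

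Total counts on genes lay between 21716042 and 26740832 per library, and a floor of 3 counts was worth 0.113 to 0.137 CPM, depending on the library. CPM are counts scaled to a common TMM-adjusted library total, used here for one gene across libraries. The floor covers counting error only. The fibroblast label was checked first. Of 10 fibroblast markers, 9 passed the filter, with a summed FPKM (counts per gene length and library total) between 4330 and 4970 in every library, while Lum was at or near 0. Single markers moved within that sum. Col3a1 (log2 fold change -1.27 and -0.65) and Pdgfra (-0.70 and -0.68) were called lower at 500 and 600 mOsm against iso-osmolar medium. Pdgfrb was called higher at both (0.17 and 0.29), and Col1a1 (0.33) and Col1a2 (0.26) were called higher at 600 mOsm only. Vim, Fn1, Thy1 and Fbn1 were not called in these comparisons. The 5 endothelial markers summed to between 0.202 and 0.246 FPKM without added sucrose, 3.36 and 3.84 at 500 mOsm and 0.577 and 0.901 at 600 mOsm. Pecam1 made up most of that sum at 500 mOsm (3.25 ± 0.245 FPKM, SD, n = 3), whereas Cdh5 stood at 0.143 ± 0.0234 FPKM there and was not called (edgeR adjusted p = 0.927). Tek was also called higher at 500 mOsm (edgeR adjusted p = 0.000824), at 0.480 ± 0.0240 CPM, above the floor, where its iso-osmolar level was 0.0152 ± 0.0263. Kdr stood above the floor there and was not among the tested genes (0.353 ± 0.115 CPM against 0 in iso-osmolar libraries), and Emcn was at or near 0 throughout. The 5 macrophage and leukocyte markers in the table summed to between 6.12 and 9.77 FPKM without added sucrose. At 500 mOsm the sum was between 8.22 and 19.2 and at 600 mOsm between 8.15 and 17.3, with Tyrobp at or near 0. Ptprc was not among the tested genes, and its mean was above the floor at 500 mOsm only (0.208 ± 0.0816 CPM). Csf1r was called higher at 500 mOsm (log2 fold change 0.38, edgeR adjusted p = 0.00695) and was not called at 600 mOsm (edgeR adjusted p = 0.169). Cd68 and Lyz2 were not called against iso-osmolar medium. The part of these 5 markers in the members' differences was not tested. Epithelial markers summed to between 0.0317 and 0.237 FPKM in iso-osmolar libraries, 1.08 and 1.47 at 500 mOsm and 0.117 and 0.275 at 600 mOsm, with Cdh1 called higher at 500 mOsm (0.0137 ± 0.0237 CPM against 3.47 ± 0.207, edgeR adjusted p = 8.75e-08). Neuronal markers summed to between 2.39 and 2.65, 3.62 and 4.54, and 2.80 and 3.47 FPKM in the same order, with Tubb3 2.43-fold higher at 500 mOsm (edgeR adjusted p = 0.000167). Skeletal muscle markers summed to at most 0.232 FPKM. Like Egr1, Egr2 and Nr4a2, the endothelial, epithelial and neuronal sums and Csf1r were highest at 500 mOsm. Their part in those members' rises was not tested. These were bulk libraries, in which fewer cells of a type and less RNA per cell cannot be told apart.

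The members went different ways at low intensity and, apart from the Nab genes, fell at high intensity. At 500 mOsm against iso-osmolar medium, Egr1, Egr2 and Nr4a2 rose, Egr3 fell, and Nab1, Nab2, Nr4a1 and Nr4a3 did not pass the test. In that comparison 13.2% of all tested genes were called higher and 14.8% lower (edgeR quasi-likelihood test, Benjamini-Hochberg adjusted p under 0.05). At 600 mOsm against iso-osmolar medium, 6 of the 8 members fell and none rose, beside 20.0% of tested genes called lower and 15.1% higher. The members left uncalled were Nab1 and Nab2. Between the intensities, Egr1, Egr2, Nr4a1, Nr4a2 and Nr4a3 were lower at 600 than at 500 mOsm and none was higher, beside 17.2% of tested genes called lower and 11.9% higher. The median log2 fold change of the 8 members was 0.13 at 500 mOsm, -1.05 at 600 mOsm and -1.34 between the intensities, where the median over all tested genes was 0.01 at most. The 3 comparisons share libraries with each other, so their values stand side by side and are not independent. All stressed libraries were taken at 3 hr, so a rise or fall of a member before or after that time was not measured.

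**Figure D1:**
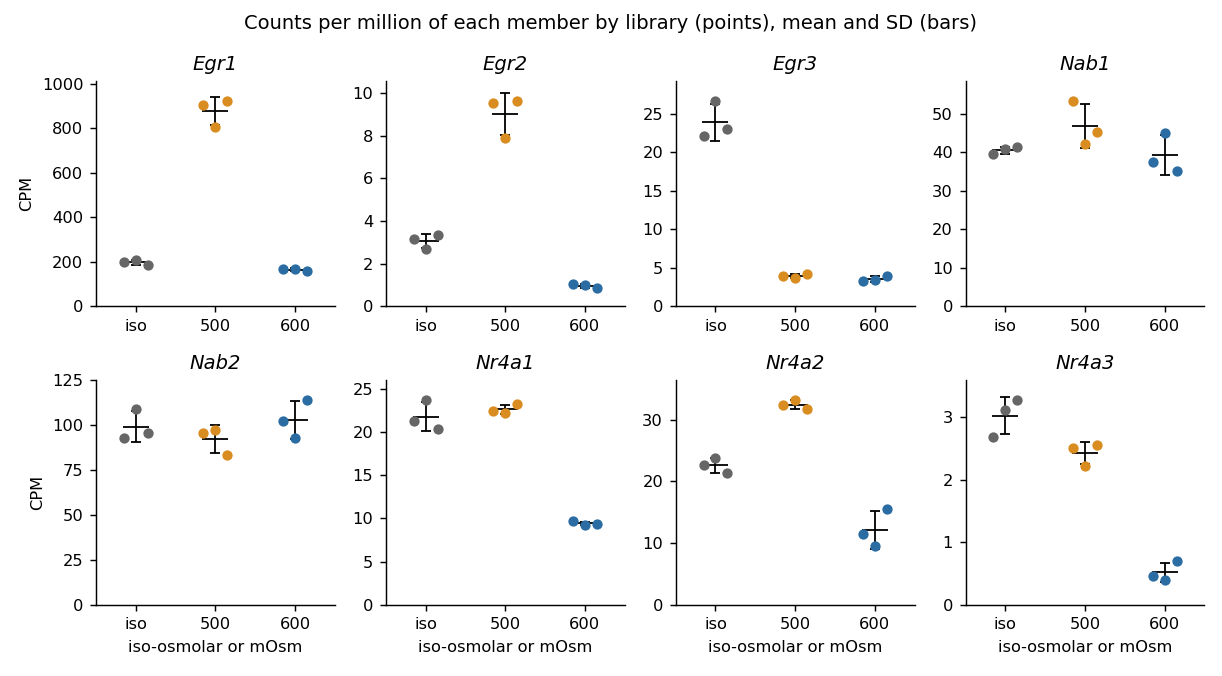
CPM of each member (vertical axis, from 0, its own scale per panel) in the iso-osmolar, 500 mOsm and 600 mOsm libraries, each point 1 library and the bars the mean and SD of 3. Egr1 and Egr2 peak at 500 mOsm, Egr3 is low at both intensities, the Nr4a genes are lowest at 600 mOsm, and no Nab difference was called.

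Egr1, the family member most readily induced by growth factors and stress, was the most abundant Egr mRNA in every library. Its counts were 4327, 5094 and 4498 without added sucrose, 22100, 21406 and 24125 at 500 mOsm and 3958, 3775 and 4040 at 600 mOsm. In CPM this was 197, 209 and 184, then 906, 807 and 920, then 166, 169 and 156. The 500 mOsm libraries stood far above the rest, and the 600 mOsm libraries lay just below every iso-osmolar library. Egr1 rose 4.47-fold at 500 mOsm over its iso-osmolar level (log2 fold change 2.16 ± 0.06, SE, edgeR adjusted p = 1.1e-10). By mean FPKM it stood at percentile 86 of the tested genes in iso-osmolar medium and 97.1 at 500 mOsm. At 600 mOsm it was 1.2-fold below its iso-osmolar level (log2 fold change -0.26 ± 0.06, edgeR adjusted p = 0.0058) and 5.36-fold lower than at 500 mOsm (edgeR adjusted p = 3.89e-11). Egr1 is on chromosome 18, and no other gene in the table overlaps it.

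Egr2, a factor of myelinating glia and hindbrain patterning that is also induced by serum, had the same order of treatments at a far lower level. It lies at chr10:67535475-67542188 of mm10, the build of the table. Its counts were 69, 66 and 82 without added sucrose, 233, 209 and 252 at 500 mOsm and 25, 22 and 22 at 600 mOsm, with no overlap between treatments. Egr2 rose 2.94-fold at 500 mOsm (log2 fold change 1.55 ± 0.13, edgeR adjusted p = 2.17e-06) and fell 3.19-fold below the iso-osmolar level at 600 mOsm (log2 fold change -1.67 ± 0.18, edgeR adjusted p = 1.64e-05). Between the intensities it differed 9.36-fold (edgeR adjusted p = 1.89e-08). Against iso-osmolar medium, the 95% confidence interval of the 600 mOsm log2 fold change ran from -2.06 to -1.29 for Egr2 and from -0.40 to -0.13 for Egr1, so the intervals did not meet.

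Egr3, which acts in muscle spindle development and lymphocytes and often responds with Egr1, went the opposite way at low intensity. Its counts were 485, 650 and 564 without added sucrose, 96, 98 and 110 at 500 mOsm and 78, 75 and 103 at 600 mOsm. Every stressed library was below every iso-osmolar library, and the 500 and 600 mOsm libraries overlapped. Egr3 fell 6.07-fold at 500 mOsm (log2 fold change -2.60 ± 0.11, edgeR adjusted p = 5.45e-09) and 6.75-fold at 600 mOsm (log2 fold change -2.75 ± 0.12, edgeR adjusted p = 6.31e-09). Ordered by log2 fold change among the 13082 tested genes, it was the 25th from the bottom at 500 mOsm and the 23rd from the bottom at 600 mOsm. The difference between the intensities did not pass the test, with a log2 fold change of -0.15 and a 95% confidence interval from -0.44 to 0.13 (edgeR adjusted p = 0.425). The table's Egr3 gene, chr14:70077445-70080157 with a length of 1416 bases, is shorter at both ends than the GENCODE M21 gene at chr14:70077203-70082614. Reads on the parts left out were not counted, and the Egr3 FPKM rests on that length.

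**Figure D2:**
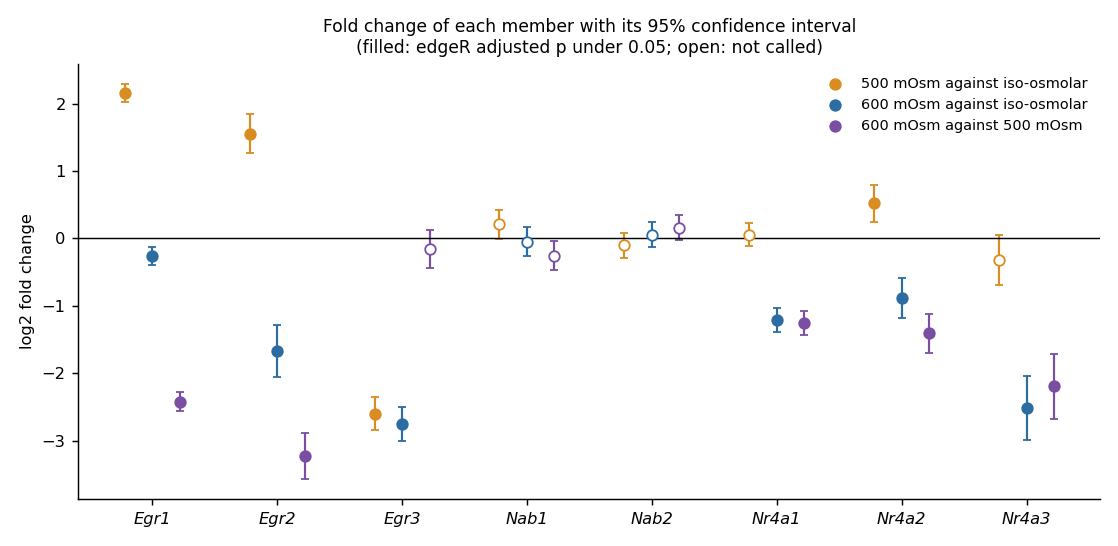
log2 fold change of each member (vertical axis) in the 3 comparisons (colors), with the 95% confidence interval as the bar. Filled points passed the edgeR test at an adjusted p under 0.05 and open points did not. Egr1 (2.16) and Egr3 (-2.60) lie on opposite sides of 0 at 500 mOsm, and all Nab1 and Nab2 points are open.

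On the length-scaled FPKM scale, where genes can be set beside each other, Egr1 took an even larger part of the family under stress. It made up 71.0% ± 1.33 (SD, n = 3) of the summed Egr1, Egr2 and Egr3 FPKM without added sucrose, 97.1% ± 0.0459 at 500 mOsm and 92.8% ± 0.847 at 600 mOsm. The share of Egr3 was 27.3% ± 1.4, then 1.38% ± 0.0401, then 6.37% ± 0.906. The share of Egr2 was small, at 1.69% ± 0.285, then 1.51% ± 0.0618, then 0.823% ± 0.0674. For Egr2 the iso-osmolar and 500 mOsm libraries overlapped, and the 600 mOsm libraries lay below both. The libraries of the 3 treatments did not overlap in the shares of Egr1 and Egr3. An exact two-sided permutation test gave p = 0.1 for each pair of treatments for both shares (0.129 after Benjamini-Hochberg adjustment over all shares and pairs), and 0.1 is the smallest p that 3 libraries against 3 allow. The iso-osmolar and 600 mOsm libraries thus had separate shares of Egr1 and Egr3, while the level of Egr1 itself differed 1.2-fold between them.

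**Figure D3:**
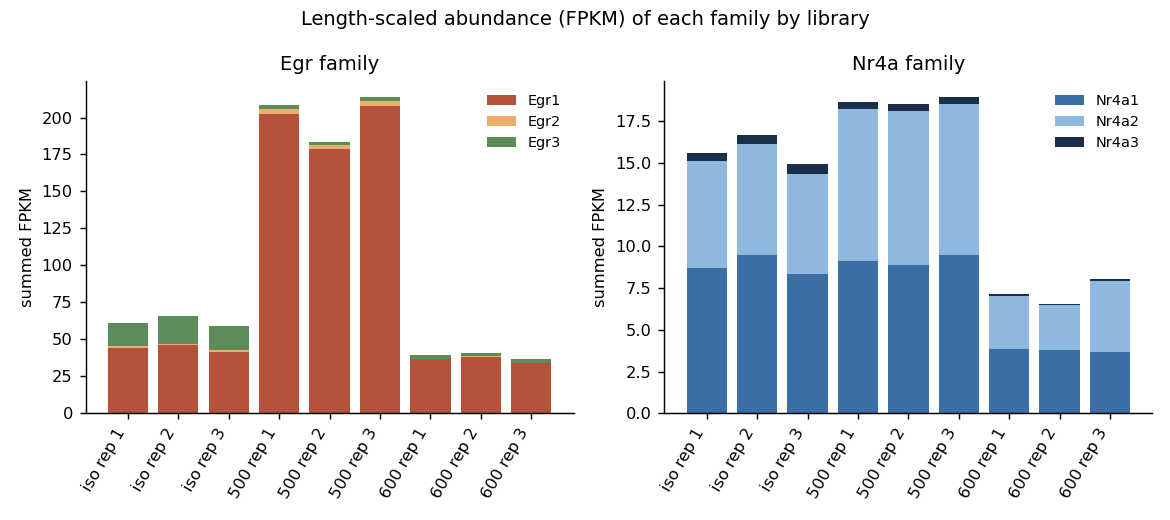
Summed FPKM (vertical axis, from 0) of the Egr family (left) and Nr4a family (right) in each of the 9 libraries, split by gene. The Egr sum is 184 to 214 at 500 mOsm and 36.9 to 40.8 at 600 mOsm. Egr3 is visible mainly in the iso-osmolar bars, and the Nr4a sum is lowest at 600 mOsm.

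Egr4, the family member outside the chosen list, was close to the floor. Its counts were 0, 4 and 0 without added sucrose, 11, 14 and 6 at 500 mOsm and 7, 7 and 24 at 600 mOsm. The stressed libraries all lay above the iso-osmolar libraries, and 600 mOsm replicate 3 held the most. edgeR called it higher at 500 mOsm (adjusted p = 0.0416) and at 600 mOsm (adjusted p = 0.0155). These calls rest on single libraries. Leaving out one library at a time gave adjusted p-values from 0.0147 to 0.119 at 500 mOsm, with the call lost without iso-osmolar replicate 1 or 3 or 500 mOsm replicate 1 or 2. At 600 mOsm they ran from 0.00756 to 0.0878, with the call lost without iso-osmolar replicate 1 or 3 or 600 mOsm replicate 3.

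The Nab corepressors were the members without a call in any comparison. Nab2, itself known as an Egr1 target in other settings, had 93.1, 109 and 95.7 CPM without added sucrose, 96.0, 97.6 and 83.5 at 500 mOsm and 102, 92.8 and 114 at 600 mOsm, with overlap between all treatments. Its log2 fold change was -0.10 at 500 mOsm, with a 95% confidence interval from -0.29 to 0.08 (edgeR adjusted p = 0.419), and 0.06 at 600 mOsm, with an interval from -0.13 to 0.24 (edgeR adjusted p = 0.659). These intervals leave room for small changes but not for a change of the size seen in Egr1 at 500 mOsm. Between the intensities the log2 fold change was 0.16, with an interval from -0.03 to 0.35 (edgeR adjusted p = 0.191), and it passed the threshold when no filter on genes was applied (adjusted p = 0.0438).

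Nab1 had 39.4, 40.7 and 41.3 CPM without added sucrose, 53.1, 42.2 and 45.2 at 500 mOsm and 37.3, 45.0 and 35.2 at 600 mOsm. The 500 mOsm libraries were all above the iso-osmolar ones, by a margin that did not pass the test (log2 fold change 0.21, 95% confidence interval -0.01 to 0.42, edgeR adjusted p = 0.142). At 600 against 500 mOsm the log2 fold change was -0.26, with an interval from -0.47 to -0.04 (edgeR adjusted p = 0.0693), and Nab1 passed the threshold with no filter on genes (adjusted p = 0.0213) and without 500 mOsm replicate 2 (adjusted p = 0.0303) or 600 mOsm replicate 2 (adjusted p = 0.0105). At 600 mOsm against iso-osmolar medium it was -0.05, with an interval from -0.27 to 0.17 (edgeR adjusted p = 0.739).

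Nab2 (chr10:127660918-127668568, minus strand) shares 1668 bases of its span with Tmem194, 40 with Stat6 and 1646 with Gm16229, all on the opposite strand, and the sources used here do not state that reads were counted by strand. Gm16229 had 0 FPKM in all treatments, and Stat6 had 27.6 ± 0.615, 27.9 ± 1.46 and 27.2 ± 0.304 FPKM. Tmem194 fell at 600 mOsm (log2 fold change -0.53, edgeR adjusted p = 0.00234). Its FPKM was 5.59 ± 0.584, 4.55 ± 0.330 and 3.83 ± 0.600 in the order iso-osmolar, 500 and 600 mOsm. Its part in the Nab2 counts was not tested. Nab1 (chr1:52457294-52500679, minus strand) shares a stretch of 382 bases at 95% identity or more with transcripts of Cog7, and the other 6 members share no stretch of 100 bases at that identity with another gene.

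As a description of the balance between activators and corepressors, the summed FPKM of Egr1, Egr2 and Egr3 was divided by that of Nab1 and Nab2. The ratio was 1.31, 1.26 and 1.22 without added sucrose, 4.09, 3.80 and 4.80 at 500 mOsm and 0.802, 0.850 and 0.713 at 600 mOsm. The treatments did not overlap, with more Egr than Nab mRNA per length in unstressed and low-intensity libraries and less in high-intensity libraries. The sum of the Nab pair itself was 49.1 ± 2.91, 48.0 ± 3.26 and 49.6 ± 1.98 FPKM. Each pair of treatments gave p = 0.1 for the ratio in an exact two-sided permutation test (0.1 after adjustment over the 3 pairs), the smallest the design allows.

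Letters of the Egr binding site occur around the 5′ end of Nab1, and the stretches that hold them are printed. Nab1 was not called in any comparison while Egr1 rose 4.47-fold, and a link of these letters to either was not tested. RefSeq promoter windows of 250 bases before the transcription start (GRCm38.p6, the assembly of mm10) were found for 6 of the 8 members, all but Egr1 and Egr3. The Egr sites GCGTGGGCG and GCGGGGGCG, searched on both strands, occurred 3 times in the Nab1 window, while at least 3 such sites are found in 11 of 32851 windows (0.0335%). GCGTGGGCG alone is found in 0.536% of windows and GCGGGGGCG in 2.57%. The count of 3 was singled out after the matches were seen. The RefSeq start lies inside the Nab1 gene, which ends at 52500679 both in the deposited table and in GENCODE. So 231 of the 250 bases, with all 3 sites, fall within that gene. They are thus upstream by the RefSeq start only. The sites are in capitals, written on the Nab1 strand, and the first is the reverse complement of GCGTGGGCG. A match is a description of letters and does not show binding.
Nab1, chr1:52500571-52500599, minus strand: gccccgcggcCGCCCACGCcgggatctgc
Nab1, chr1:52500539-52500567, minus strand: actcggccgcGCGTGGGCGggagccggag
Nab1, chr1:52500468-52500496, minus strand: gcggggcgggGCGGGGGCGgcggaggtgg

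No motif searched was found in the Nab2 and Egr2 windows. The Nab2 window starts from a RefSeq start 1865 bases inside the table's gene, so it is not upstream of the gene as counted. RefSeq lists 5 windows for Egr2, of which only the 1 nearest the table's gene start was searched. The Nr4a1 window held 1 Egr site, GCGGGGGCG, on the reverse strand.

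All 3 Nr4a genes fell at high intensity and differed at low intensity. Nr4a1 (Nur77, chr15:101266846-101274792), a regulator of apoptosis and metabolism in many cells, had 21.3, 23.7 and 20.4 CPM without added sucrose, 22.4, 22.2 and 23.2 at 500 mOsm and 9.67, 9.27 and 9.32 at 600 mOsm. Unstressed and low-intensity libraries overlapped, and the high-intensity libraries lay far below both. At 500 mOsm the log2 fold change was 0.05, with a 95% confidence interval from -0.11 to 0.22 (edgeR adjusted p = 0.662). At 600 mOsm Nr4a1 was 2.31-fold below its iso-osmolar level (log2 fold change -1.21 ± 0.08, edgeR adjusted p = 3.33e-07) and 2.4-fold lower than at 500 mOsm (edgeR adjusted p = 2.39e-07). GENCODE M21 begins the gene further upstream, at 101254269, than the deposited table does, so transcripts starting there are counted only in part.

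Nr4a2 (Nurr1, chr2:57106830-57124003, minus strand), known for its role in dopaminergic neurons, was the one Nr4a gene that rose at low intensity. It had 22.6, 23.8 and 21.4 CPM without added sucrose, 32.4, 33.2 and 31.8 at 500 mOsm and 11.5, 9.54 and 15.6 at 600 mOsm. The treatments did not overlap, and 600 mOsm replicate 3 was the highest of its group. Nr4a2 rose 1.44-fold at 500 mOsm (log2 fold change 0.52 ± 0.13, edgeR adjusted p = 0.00732) and fell 1.85-fold below the iso-osmolar level at 600 mOsm (log2 fold change -0.88 ± 0.13, edgeR adjusted p = 0.000292). Without 600 mOsm replicate 3 the latter log2 fold change was -1.10. Against 500 mOsm it was 2.65-fold lower (edgeR adjusted p = 6.29e-06).

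Nr4a3 (Nor1, chr4:48045153-48086447), the least abundant member, had counts of 59, 76 and 80 without added sucrose, 61, 59 and 67 at 500 mOsm and 11, 9 and 18 at 600 mOsm. In CPM the 500 mOsm libraries lay just below the iso-osmolar ones, at 2.22 to 2.55 against 2.69 to 3.27, and the log2 fold change of -0.32 had a 95% confidence interval from -0.69 to 0.04 (edgeR adjusted p = 0.187). At 600 mOsm Nr4a3 was 5.71-fold below its iso-osmolar level (log2 fold change -2.52 ± 0.22, edgeR adjusted p = 2.72e-06) and 4.58-fold lower than at 500 mOsm (edgeR adjusted p = 1.17e-05). By log2 fold change it was the 40th from the bottom among the tested genes at 600 mOsm. The counts at 600 mOsm are few, and on the log2(FPKM + 0.1) scale, which understates the change of low genes, the same fall was -1.74.

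Within the Nr4a family the shares of summed FPKM were nearer to each other across treatments than in the Egr family. Nr4a1 made up 56.2% ± 0.769 without added sucrose, 49.0% ± 1.0 at 500 mOsm and 52.6% ± 6.20 at 600 mOsm. Nr4a2 made up 40.4% ± 0.734, 48.8% ± 1.14 and 46.2% ± 5.99. In the high-intensity group, replicate 3 stood apart with 52.8% Nr4a2 and 45.7% Nr4a1, where replicate 2 had 41.2% and 57.7%. The share of Nr4a3 was 3.39% ± 0.428, 2.27% ± 0.166 and 1.23% ± 0.217, without overlap between treatments (exact two-sided permutation test, p = 0.1 for each pair, adjusted 0.129). The sum of the Nr4a family was 15.7 ± 0.864, 18.7 ± 0.226 and 7.24 ± 0.741 FPKM.

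The Nr4a promoter windows are shown for a sequence feature that the 3 genes share and that the choice of members did not use. Whether it has a part in their fall at 600 mOsm was not tested. Each window holds the core of a cAMP response element, TGACG or its reverse complement CGTCA, 4 times, and at least 4 such cores are found in 45 of 32851 RefSeq windows (0.137%). At least 1 core is found in 17.8% of windows. The Nab1 window holds 1 core and the Egr2 and Nab2 windows searched hold 0, where only 1 of the 5 Egr2 windows was searched. The count of 4 was likewise singled out after the matches were seen. The core lies within the full element TGACGTCA, which none of the 6 windows of members holds (1.55% of all windows). The cores are in capitals, as is the Egr site CGCCCCCGC of Nr4a1. For Nr4a3 the stretch ends before the gene start in the deposited table, which lies within the RefSeq window, so 3 of its 4 cores are seen.
Nr4a1, chr15:101266596-101266845, plus strand: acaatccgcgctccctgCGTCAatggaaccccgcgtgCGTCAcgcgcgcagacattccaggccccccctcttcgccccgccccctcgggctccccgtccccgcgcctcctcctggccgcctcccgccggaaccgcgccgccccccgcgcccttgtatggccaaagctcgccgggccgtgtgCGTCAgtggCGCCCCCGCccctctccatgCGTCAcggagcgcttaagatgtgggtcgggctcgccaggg
Nr4a2, chr2:57124004-57124253, minus strand: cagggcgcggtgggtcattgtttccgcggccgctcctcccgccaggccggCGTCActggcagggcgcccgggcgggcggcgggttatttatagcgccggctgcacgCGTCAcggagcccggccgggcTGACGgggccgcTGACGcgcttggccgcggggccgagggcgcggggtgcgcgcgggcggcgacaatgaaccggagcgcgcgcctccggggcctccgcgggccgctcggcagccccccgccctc
Nr4a3, chr4:48045055-48045152, plus strand: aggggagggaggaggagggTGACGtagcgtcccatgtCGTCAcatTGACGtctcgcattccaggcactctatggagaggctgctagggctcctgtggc

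Other motifs were sparse. TATAAA occurred in the Nr4a2 window on the reverse strand (12.4% of all windows hold it) and a kappaB site in that of Nab1 (3.90%). The CArG box (1.47% of windows), the NBRE AAAGGTCA (1.34%), the TonE (4.31%) and the AP-1 site TGANTCA (6.75%) were in none of the 6 windows, which says only that these letters are not in the 250 bases searched.

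**Figure D4:**
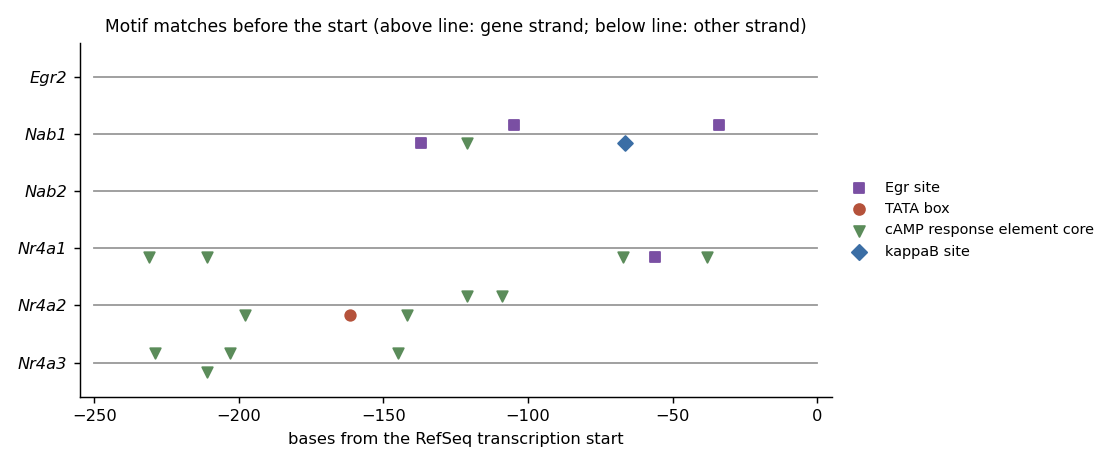
Motif matches in the 6 RefSeq windows searched, 1 per gene, by distance in bases from the RefSeq transcription start (horizontal axis). Marks above a line are on the gene strand and below it on the other. Each Nr4a window has 4 cAMP response element cores, Nab1 has 3 Egr sites, and Egr2 and Nab2 have no match.

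The order of the members by FPKM changed with treatment. In iso-osmolar medium it was Egr1 (44.0 ± 2.40), Nab2 (38.6 ± 2.92), Egr3 (17.0 ± 1.51), Nab1 (10.5 ± 0.246), Nr4a1 (8.84 ± 0.604), Nr4a2 (6.36 ± 0.287), Egr2 (1.04 ± 0.122) and Nr4a3 (0.531 ± 0.0520), where the ranges of Egr1 and Nab2 overlapped and no other neighbours did. At 500 mOsm Egr1 stood first alone (196 ± 15.6), and Egr3 (2.79 ± 0.206) had dropped to the level of Egr2 (3.05 ± 0.359), with overlapping libraries. Nr4a1 (9.16 ± 0.298) and Nr4a2 (9.12 ± 0.105) also overlapped there. At 600 mOsm Nab2 (39.5 ± 3.35) and Egr1 (36.2 ± 2.11) overlapped again, followed by Nab1 (10.0 ± 1.52). Nr4a1 (3.77 ± 0.102), Nr4a2 (3.37 ± 0.788) and Egr3 (2.47 ± 0.237) came next, and the libraries of Nr4a2 overlapped those of both neighbours.

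The genes whose log2 CPM followed each member most closely over the 9 libraries are named as a description, since the libraries form 3 treatment groups and share them across genes. For Egr1 these were Fos, the AP-1 subunit (Pearson r = 0.997), and Csrnp1 (r = 0.996). Fos had 2.84 ± 0.276 CPM without added sucrose, 40.0 ± 2.33 at 500 mOsm and 2.53 ± 0.226 at 600 mOsm. For Egr2 they were Cflar, an inhibitor of caspase-8 (r = 0.998), and Sntb2 (r = 0.994). Pearson r takes no account of the size of a change. At 500 mOsm the log2 fold change was 0.17 for Sntb2 beside 1.55 for Egr2, and 3.81 for Fos beside 2.16 for Egr1. Egr3 was followed by Srxn1, which reduces oxidised peroxiredoxins (r = 0.9945). Nr4a1 was followed by Sik3 (r = 0.997) and Spry2, an inhibitor of receptor tyrosine kinase signaling (r = 0.996). Nr4a2 was followed by Zfp384 (r = 0.989) and Gata2 (r = 0.977), and Nr4a3 by Nfatc2 (r = 0.990) and Pgrmc2 (r = 0.986). For Nab1 the nearest were Vgll3 (r = 0.979) and Sbf2 (r = 0.978), and for Nab2 Shkbp1 (r = 0.968) and Gpc1 (r = 0.964). Within the set, Nr4a1 and Nr4a3 were close (r = 0.968), and Egr1 and Egr3 were not (r = -0.36). Also close were Egr2 and Nr4a2 (r = 0.931), Nr4a1 and Nr4a2 (r = 0.91), and Egr1 and Egr2 (r = 0.902). Genes outside the set were often closer, with Nr4a3 in place 96 among the genes nearest to Nr4a1.

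Genes outside the Egr and Nr4a families that are also known as immediate early genes gave the setting for the members. Like the lists that follow, this one was chosen with earlier results of these data known. The shares called are therefore descriptions and not independent results. Of 36 such genes, all tested, 19 rose (52.8%, beside 13.2% of all tested genes) and 9 fell (25%, beside 14.8%) at 500 mOsm, with a median log2 fold change of 0.38. The largest rises were those of Fos (3.81 ± 0.10, edgeR adjusted p = 6.07e-11) and Gem, a small GTPase (3.74 ± 0.08, adjusted p = 1.01e-11). Dusp5, an ERK phosphatase, fell most (-2.45 ± 0.06, adjusted p = 1.9e-11), next to the clock gene Per1 (-1.71 ± 0.10, adjusted p = 6.16e-08). At 600 mOsm 2 rose (5.56%, beside 15.1%) and 25 fell (69.4%, beside 20.0%), with a median of -0.53. Klf4 rose (1.36 ± 0.09, adjusted p = 2.96e-07), as did Atf3 (0.62 ± 0.18, adjusted p = 0.0158), whose call was lost without 600 mOsm replicate 2 (adjusted p = 0.0592) or iso-osmolar replicate 3 (adjusted p = 0.0693). Dusp5 (-2.05 ± 0.06) and Ptgs2, cyclooxygenase 2 (-1.62 ± 0.11), fell most. Between the intensities 27 were lower (75%, beside 17.2%) and 3 higher (8.33%, beside 11.9%) at 600 mOsm, with a median of -0.95, led by Ier3 (-4.29 ± 0.07) and Fos (-3.98 ± 0.10). Per1 was higher there (1.23 ± 0.10), and so was Ier5l (0.65 ± 0.18, adjusted p = 0.017). The Ier5l call was lost without 500 mOsm replicate 3 (adjusted p = 0.069) or 600 mOsm replicate 3 (adjusted p = 0.0554).

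Genes known as Egr1 targets in cultured cells were taken as a list. Of 16 genes in the table, 15 were tested, and at 500 mOsm 2 rose (13.3%, beside 13.2% of all tested genes) and 7 fell (46.7%, beside 14.8%), with a median log2 fold change of -0.18. Gadd45a, a growth arrest gene, rose from 3.12 ± 0.159 to 10.7 ± 0.774 CPM (log2 fold change 1.78 ± 0.11, edgeR adjusted p = 1.47e-07). Ptges, which makes prostaglandin E2, rose from 0.0864 ± 0.0752 CPM, below the floor, to 1.46 ± 0.130 CPM (adjusted p = 2.12e-05). The growth factor Fgf2 (-2.57 ± 0.25, adjusted p = 6.31e-06) and the urokinase gene Plau (-1.07 ± 0.09, adjusted p = 1.91e-06) fell most. At 600 mOsm 10 fell (66.7%, beside 20.0% of all tested genes) and 2 rose (13.3%, beside 15.1%), with a median of -0.54, and this total of 12 calls was 7 without 600 mOsm replicate 3. Fgf2 (-2.45 ± 0.25) and the angiogenic factor Vegfa (-2.13 ± 0.06, adjusted p = 2.74e-10) fell most. Ptges was called higher there (adjusted p = 0.0219), a call lost without 600 mOsm replicate 2 (adjusted p = 0.0529), 600 mOsm replicate 3 (adjusted p = 0.0651) or iso-osmolar replicate 2 (adjusted p = 0.0573). Between the intensities 5 were lower (33.3%, beside 17.2%) and 1 higher (6.67%, beside 11.9%) at 600 mOsm, with Gadd45a (-2.18 ± 0.12) and Ptges (-2.06 ± 0.34) lower and the matrix protease Mmp14 higher (0.23 ± 0.06, adjusted p = 0.0113).

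**Figure D5:**
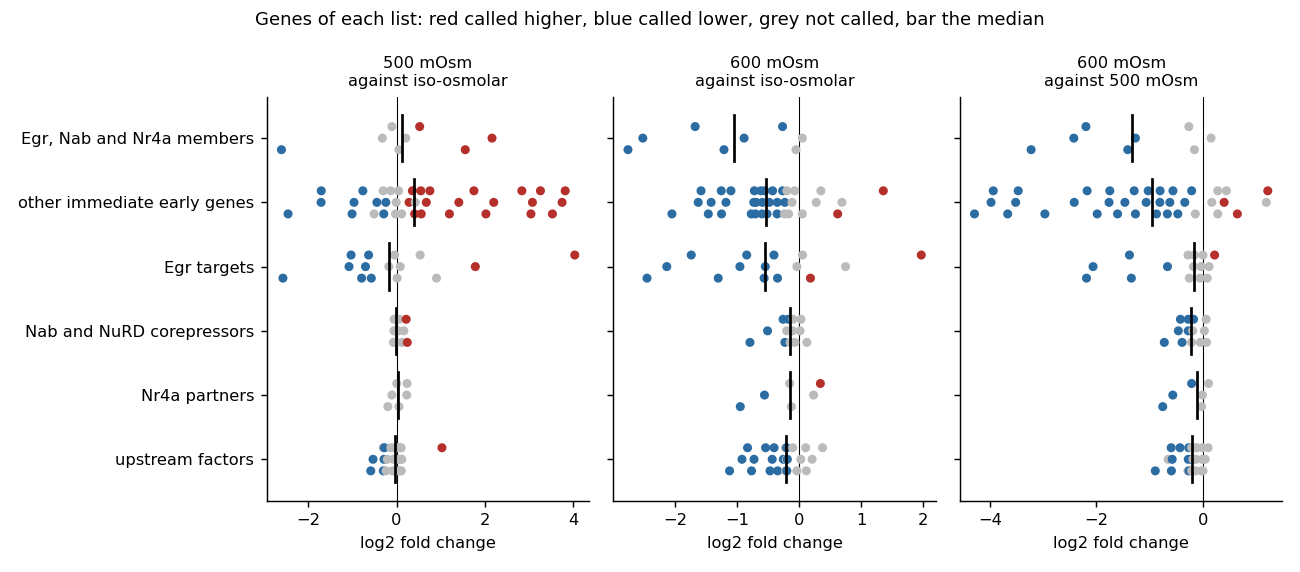
log2 fold change (horizontal axis) of every tested gene of the members and of 5 lists in the 3 comparisons, in red where called higher, blue where called lower and grey where not called, with the median as a bar. At 500 mOsm the other immediate early genes spread to both sides (19 higher, 9 lower), and at 600 mOsm most calls in every list are lower.

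The NuRD complex, through which Nab2 is known to repress, was measured in all 13 of its listed genes. At 500 mOsm 2 rose (15.4%, beside 13.2% of all tested genes) and none fell (beside 14.8%), Chd3 (log2 fold change 0.24 ± 0.06, edgeR adjusted p = 0.0071) and Gatad2b (0.22 ± 0.07, adjusted p = 0.0448). The Gatad2b call was lost when any of 7 single libraries was left out (adjusted p = 0.0559 to 0.15), and the count was 1 or 2 with one library left out. At 600 mOsm 5 fell (38.5%, beside 20.0%) and none rose, led by the methyl-CpG binding Mbd2 (-0.79 ± 0.07, adjusted p = 4.67e-06) and the remodeling ATPase Chd4 (-0.51 ± 0.04, adjusted p = 1.5e-06). This count was 3 without iso-osmolar replicate 1, 600 mOsm replicate 1 or 600 mOsm replicate 3. Between the intensities 7 were lower at 600 mOsm (53.8%, beside 17.2%) and none higher. The medians were 0.00, -0.14 and -0.21 in the same order.

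Among the partners of Nr4a proteins, 7 in the table and 6 tested, none passed the test at 500 mOsm. Of all tested genes, 13.2% were called higher and 14.8% lower there. For the partners edgeR gave a median log2 fold change of 0.03. At 600 mOsm the CoREST genes Rcor1 (-0.95 ± 0.11, edgeR adjusted p = 3.11e-05) and Rcor3 (-0.56 ± 0.14, adjusted p = 0.00819) fell. Rxrb, a retinoid X receptor, rose (0.34 ± 0.11, adjusted p = 0.0319), a call lost without 600 mOsm replicate 1 (adjusted p = 0.0567), 600 mOsm replicate 3 (adjusted p = 0.148) or iso-osmolar replicate 1 (adjusted p = 0.121). Rcor1 (-0.75 ± 0.11) and Rcor3 (-0.56 ± 0.14) were also lower at 600 than at 500 mOsm, where 3 of the 6 were called lower (50%, beside 17.2% of all tested genes) and none higher. The remaining call was lost without 500 mOsm replicate 1 (edgeR adjusted p = 0.0582), 600 mOsm replicate 1 (0.0797) or 600 mOsm replicate 2 (0.0501). At 600 mOsm against iso-osmolar medium the shares were 33.3% lower, beside 20.0%, and 16.7% higher, beside 15.1%.

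Factors known to act upstream of the members were the last list. Of 26 genes in the table, 24 were tested, and at 500 mOsm 1 rose (4.17%, beside 13.2% of all tested genes) and 5 fell (20.8%, beside 14.8%), with a median log2 fold change of -0.03. The ternary complex factors Elk4 (-0.58 ± 0.09, edgeR adjusted p = 0.000375) and Elk3 (-0.53 ± 0.04, adjusted p = 1.79e-06) fell most. The kinase gene Rps6ka5 rose (1.03 ± 0.30, adjusted p = 0.0201), a call lost without 500 mOsm replicate 3 (adjusted p = 0.0586) or iso-osmolar replicate 2 (adjusted p = 0.062). At 600 mOsm 14 fell (58.3%, beside 20.0%) and none rose, with Elk3 (-1.12 ± 0.05, adjusted p = 5.19e-09) and Mef2a (-0.92 ± 0.15, adjusted p = 0.000392) lowest. Between the intensities 9 were lower at 600 mOsm (37.5%, beside 17.2%) and none higher, led by Mef2a (-0.89 ± 0.14, adjusted p = 0.000531) and Crtc3, a CREB coactivator (-0.59 ± 0.10, adjusted p = 0.000589). The data are mRNA levels only, and neither protein nor kinase activity was measured in them.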

How the data were processed

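The authors deposited one table of 35275 genes with the count of reads on each gene in each of 9 libraries, without normalization, and FPKM made from the deposited counts with the gene length in the table and the library total. It also holds the authors' fold changes and p-values for each pair of treatments, which were not used. The submitters' processing notes name CASAVA 1.8, STAR and mm10, and the counting tool is not given in the sources used here. No column of per-sample values was left out.

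Counts were TMM-normalized and tested by the quasi-likelihood test of edgeR 4.0.16 (limma 3.58.1, R 4.3.3) fitting treatment over all 9 libraries together, on 13082 genes passing filterByExpr (minimum count 10). P-values were Benjamini-Hochberg adjusted over these genes, with 0.05 as the threshold. The common biological coefficient of variation was 0.0756. Values after ± are SD for levels and SE for log2 fold changes, and confidence intervals are at 95%. Shares and ratios of FPKM were compared by exact permutation of libraries. The test was tried on simulated counts.

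Named genes were the members, Egr4, from each list and comparison at most 2 genes per direction with the largest called change and no overlap between groups, and for each member 2 genes with the highest r among tested genes of average log2 CPM of at least 1. For Egr3, 1 of these is not reported here. The members and lists were chosen with earlier results of these data known. Alternatives were RLE factors, total counts alone, no filter, DESeq2 1.42.0 (Wald test), a stricter filter of 10 counts in each library, fits of only the 2 treatments compared, a replicate block, limma on log2(FPKM + 0.1), shares of CPM and each library left out in turn. Positions are those of mm10 in the table, GENCODE M21 was used for gene ends, blastn for shared sequence, and promoter windows are those of RefSeq.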

Additional observations from a re-analysis of the deposited data

How the results depend on the processing

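Of 405 log2 fold changes of members over 17 alternatives, 399 kept both their direction and their side of the threshold. The other 6 were all of Nab1 and Nab2. Nr4a3, with under 10 counts in 1 library, gave no value under the minimum of 10 counts in every library. Without a filter on genes, Nab1 (log2 fold change -0.24, adjusted p = 0.0213) and Nab2 (0.18, adjusted p = 0.0438) passed the threshold at 600 against 500 mOsm, so that 1 member was called higher there instead of 0. Nab1 also passed there without 500 mOsm replicate 2 (-0.32) or 600 mOsm replicate 2 (-0.37). Without 600 mOsm replicate 3, the 600 mOsm against iso-osmolar log2 fold changes turned direction for Nab1 (0.024, from -0.05) and Nab2 (-0.024, from 0.06), neither of them called. With one library left out they ran from -0.16 to 0.024 for Nab1 and from -0.024 to 0.13 for Nab2.

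The count of NuRD genes called at 500 mOsm against iso-osmolar medium was 2, and 1 with total counts alone, no filter, only the 2 treatments compared, the replicate block or limma on FPKM, and 1 to 2 with one library left out. At 600 mOsm it was 5, and 3 to 7 with one library left out. Of the Nr4a partners, 3 were called at 600 mOsm and 5 with total counts alone. At 500 mOsm 0 were called, 2 with no filter and 0 to 1 with one library left out. Egr targets called at 600 mOsm were 12, and 7 to 11 with one library left out. Why these counts moved was not tested.

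Libraries with the same replicate number were not more alike on average than the others, which does not exclude pairing or a shared batch. Deviations from the group means correlated between same-numbered libraries at -0.198 on average over 9 pairs (from -0.535 to 0.45) and between the others at 0.101 over 18 pairs. These averages are tied to each other, because deviations from a group mean cancel within the group. With the replicate block, 3111, 3798 and 3089 genes were called at 500 and 600 mOsm against iso-osmolar medium and between the intensities, where 3659, 4594 and 3810 were called without it, and no call of a member changed. The depth limits Egr4 and, at 600 mOsm, Nr4a3, and with 3 libraries per treatment the exact tests of shares and ratios could not pass 0.05.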
